A study of Mus musculus with 9 samples.

Results

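The S100 calcium-binding proteins are described here through 10 of their genes, S100a3, S100a4, S100a6, S100a7a, S100a8, S100a9, S100a10, S100a11, S100a14 and S100a16, in the stomach of newborn mice with and without the transcription factor C/EBPβ. They were found by gene name, or by the current symbol of the probe's RefSeq accession, among the non-control probes of the array. The 10 genes have 12 probes, because S100a4 and S100a16 have 2 each, and they stand among 35080 gene names on the array. The set was chosen because S100a9 was lower in the knockout and its partner S100a8 was not, so every difference between the genotypes in these 10 genes is given as a description and no test is read from it.

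The stomachs came from 5 mice labelled C/EBPbeta KO (KO 1 to KO 5) and 4 labelled WT (WT 1 to WT 4), with 1 Agilent 1-colour array per mouse. Neither group carries a treatment, both were killed at birth, and 0.3 µg of total RNA per stomach was copied from oligo dT and labelled with Cy3. One label, the source name, describes these animals as old, against the protocol and the design text, which speak of newborns. The sources used here give neither the strain, nor the allele, nor the litters, so the p-values measure the spread between these mice only.

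Most S100 proteins are small dimers with a pair of EF hands, loops that bind calcium in most of the family. Some work inside the cell by gripping annexins or the cytoskeleton, and some are secreted as danger signals that engage receptors such as Tlr4 and Ager. S100A8 and S100A9 together form calprotectin, which neutrophils and monocytes carry in bulk and which stressed squamous epithelium can also make. Most mouse S100 genes sit in the epidermal differentiation complex on chromosome 3, beside the genes of the cornified envelope. The mouse stomach joins a squamous forestomach to a glandular part, so it holds several cell types known to use S100 proteins. In whole stomach, fewer cells of a type and less RNA per cell cannot be told apart.

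Levels are log2 processed signals from which each array's 75th percentile was taken off, and each difference is KO minus WT with limma's standard error (SE) from a fit over all 21730 genes kept. A gene was kept if 4 or more of the 9 arrays read its probe well above background, and all 10 S100 genes were well above background on all 9. The 75th percentile was lowest on WT 4 (221) and highest on KO 3 (472), and the number of arrays limits the precision. Cebpb, the targeted gene, fell by 5.48 ± 0.30 (SE; limma adjusted p = 0.000123), and no KO array overlapped a WT array. Of 17 glandular stomach markers all were kept, among them Gkn2, Tff2 and Muc6, and all 29 squamous differentiation markers were kept too, so the tissue carried both of its epithelia. WT 4 stood apart from the other WT arrays in several of the genes below, and 3 of the 5 KO arrays (KO 2, KO 4 and KO 5) and 0 of the 4 WT arrays lacked Y-linked signal. Slide 1 held KO 4, KO 5, WT 3 and WT 4, slide 4 held KO 2, WT 1 and WT 2, and KO 1 and KO 3 lay alone on slides of their own.

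S100a9 encodes the larger subunit of calprotectin. In mouse order, the 5 knockout stomachs gave processed signals of 388, 912, 1197, 1374 and 1603, and the 4 wild-type stomachs gave 8815, 7482, 6659 and 1993. On the normalised log2 scale this was 0.41, 1.68, 1.34, 1.59 and 1.81 in the knockout against 4.42, 4.45, 4.48 and 3.17 in wild type. Every KO array lay below every WT array, with a gap of 1.36 between the highest KO array and WT 4, the lowest of its group. The mean was 1.36 ± 0.56 (SD, n = 5) in KO and 4.13 ± 0.64 (SD, n = 4) in WT, a difference of −2.77 ± 0.36 (SE), or 6.81-fold lower. The difference was −2.13 within slide 1, −2.76 within slide 4 and −3.09 ± 0.30 without WT 4.

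S100a8 encodes the other subunit, and in the RefSeq gene table no gene lies between S100a8 and S100a9. Its signal was dim, with 60.7, 91.4, 223, 150 and 310 in the knockouts and 108, 144, 86.8 and 95.7 in wild type. Normalised, S100a8 read −2.27, −1.64, −1.09, −1.61 and −0.56 in KO and −1.93, −1.25, −1.78 and −1.21 in WT. Both the lowest array, KO 1, and the highest, KO 5, were knockouts, and the WT arrays lay between them. The KO mean was −1.43 ± 0.64 (SD, n = 5) and the WT mean −1.54 ± 0.37 (SD, n = 4), a difference of 0.11 ± 0.33 (SE). Over 25 alternative settings the S100a8 difference stayed between −0.18 and 0.41, while that of S100a9 stayed between −3.26 and −2.13. KO 1 was the lowest KO array for both genes and KO 5 the highest for both.

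**Figure D1:**
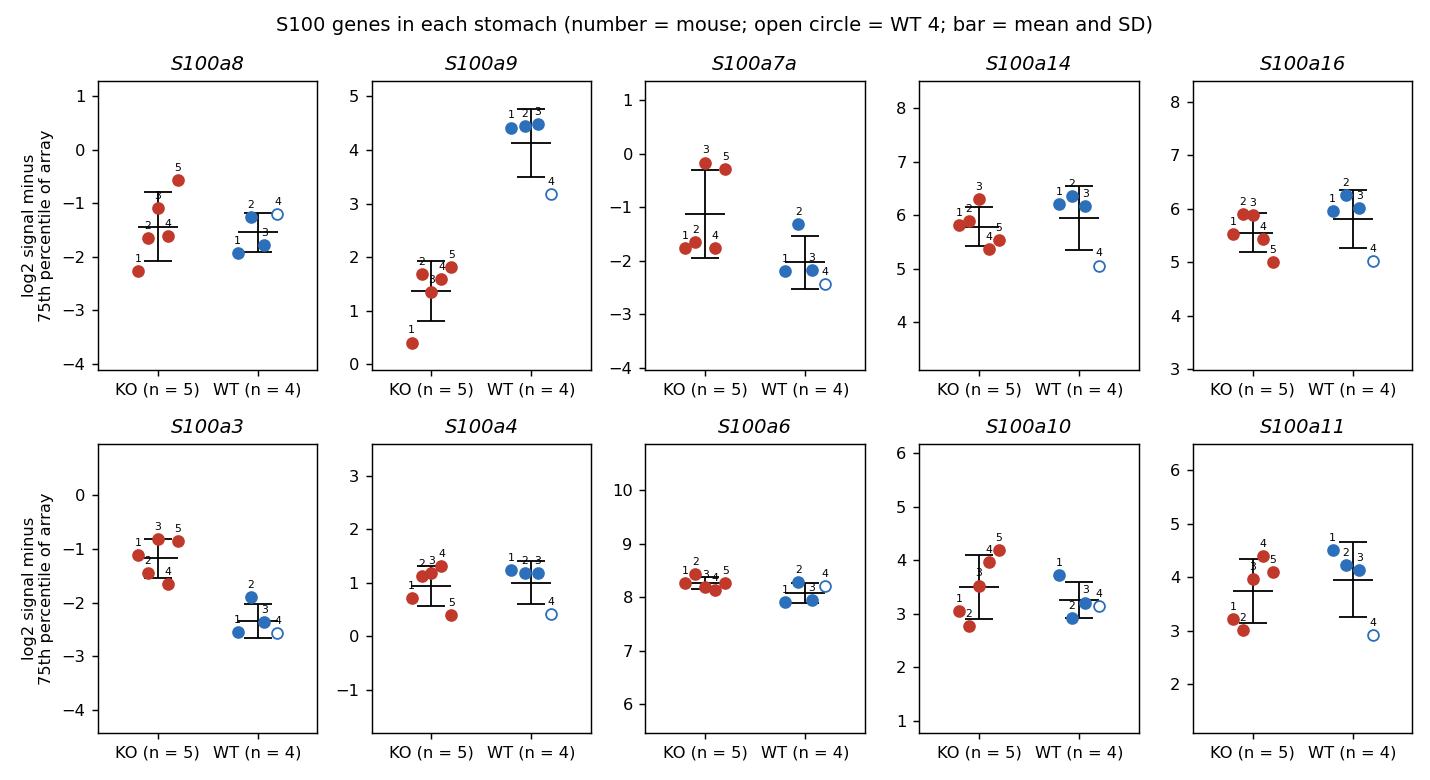
Normalised log2 signal of the 10 S100 genes (y axis, log2 signal minus the array's 75th percentile, all panels spanning the same number of log2 units) in 5 KO and 4 WT stomachs. Each point is 1 mouse with its number, the open circle is WT 4, and the bar is the mean with its SD; S100a9 and S100a3 are the panels in which the groups do not overlap, and S100a8 shows no gap.

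The probe of S100a9 lies on chr3:90496573-90496632 (mm9, minus strand, from position 410 of the transcript) and that of S100a8 on chr3:90473778-90473837 (mm9, plus strand, from position 213). The family is related in sequence, so the 60-base probes were compared with each other. The longest run of identical bases that the S100a8 probe shares with a probe of another member was 6, and for S100a9 it was 7. The longest such run in the set was 11 bases, between S100a4 and S100a6. Of the 12 probes, 1 shares a run of 15 or more bases with a probe of another gene on the array. This is the S100a11 probe, which has 19 bases in common with a probe of Gm5068, an S100a11 pseudogene in RefSeq (S100a11-ps), so the S100a11 signal may hold some of that transcript. The probes of S100a4, S100a6 and S100a8 are shown because they share the pattern TTCNAGGAGT, set in capitals, found as the longest stretch in which these 3 differ at no more than 1 position. It is held by 21 of the 55681 probes on the array (0.0377%).
S100a4, chr3:90409734-90409793 (mm9, plus strand): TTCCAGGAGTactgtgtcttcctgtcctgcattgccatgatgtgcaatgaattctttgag
S100a6, chr3:90418160-90418219 (mm9, plus strand): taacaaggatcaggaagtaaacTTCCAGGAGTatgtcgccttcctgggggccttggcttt
S100a8, chr3:90473778-90473837 (mm9, plus strand): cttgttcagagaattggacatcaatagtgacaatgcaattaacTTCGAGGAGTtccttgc
Outside this short stretch the 3 probes differ, and none shares its pattern with the S100a9 probe.

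Since the missing protein is a DNA-binding factor, the sequences in front of S100a8 and S100a9 were searched for letters of the C/EBP recognition motif. RefSeq promoter windows of 300 bases (GRCm38.p6, 250 before the gene's start and 50 after) were at hand for 8 of the 10 genes, 12 windows in all. The motif TTGCNNAA, searched on both strands, was found in 1 of the 12, that of S100a9, as TTGCTTAA beginning 236 bases before the start. It occurs in 10.8% of all 32851 windows, so 1 in 12 is near the background. The looser motif TTNNGNAA, which contains TTGCNNAA when both strands are read, was found in 4 of the 12 windows, against 40.7% of all windows. These 4 belong to S100a9, S100a8 and S100a3, the last with 2 of its 4 windows. The full palindrome TTGCGCAA, present in 0.183% of windows, was found in 0 of the 12. The 250 bases before each start are shown for the partner genes because their differences between the genotypes part, with every match to either motif in capitals. Each of these genes was read from 1 probe, and that of S100a8 was dim.
S100a9, chr3:90695722-90695971 (GRCm38.p6, minus strand): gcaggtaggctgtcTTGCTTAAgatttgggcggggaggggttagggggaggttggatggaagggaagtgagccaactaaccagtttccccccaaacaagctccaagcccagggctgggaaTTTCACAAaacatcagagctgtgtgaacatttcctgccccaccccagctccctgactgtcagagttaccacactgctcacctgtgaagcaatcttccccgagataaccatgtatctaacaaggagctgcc
S100a8, chr3:90668821-90669070 (GRCm38.p6, plus strand): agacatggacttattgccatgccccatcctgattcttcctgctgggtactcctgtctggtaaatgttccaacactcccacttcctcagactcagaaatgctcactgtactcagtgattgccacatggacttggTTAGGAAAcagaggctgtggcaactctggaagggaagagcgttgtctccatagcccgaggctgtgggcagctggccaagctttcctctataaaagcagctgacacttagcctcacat
The S100a9 stretch holds matches at −236 and −130 from the start and the S100a8 stretch holds 1 match at −117. A match describes letters in this window and says nothing of binding.

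The members known mainly from epithelium differed less than S100a9. S100a7a is the mouse counterpart of psoriasin, a secreted protein of inflamed skin. It read −1.76, −1.65, −0.17, −1.76 and −0.29 in KO and −2.19, −1.31, −2.18 and −2.44 in WT, a difference of 0.90 ± 0.41 (SE). KO 3 and KO 5 lay well above the rest, and WT 2 lay above KO 1, KO 2 and KO 4, so the groups overlapped. The S100a7a difference was 1.28 within slide 1 (2 KO, 2 WT) and 0.097 within slide 4 (1 KO, 2 WT).

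S100a3, known from the cuticle of hair, read −1.11, −1.45, −0.82, −1.65 and −0.86 in KO and −2.54, −1.90, −2.36 and −2.57 in WT. All 5 KO arrays lay above all 4 WT arrays, with a gap of 0.25 between KO 4 and WT 2. The difference was 1.17 ± 0.22 (SE), or 2.25-fold higher, the largest among the members after that of S100a9. The S100a3 signal was low, from 37.2 on WT 4 to 268 on KO 3. Background correction by normexp reduced the difference to 0.64 and it was 0.77 within slide 4, above 0 in all 25 alternative settings.

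S100a14 and S100a16 are abundant in squamous and glandular epithelium, and their proteins can pair with each other. S100a14 ran from 5.37 to 6.31 in KO and from 5.06 to 6.36 in WT, and S100a16 from 5.01 to 5.90 in KO and from 5.02 to 6.26 in WT. In both genes WT 4 was the lowest WT array by a wide margin, while WT 1, WT 2 and WT 3 lay close together. The differences were −0.16 ± 0.29 for S100a14 and −0.26 ± 0.28 for S100a16, within the spread of the arrays. The second probe of S100a16 gave −0.18 ± 0.33, and its deviations followed those of the first within genotype (Pearson r = 0.73 over 9 arrays).

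The remaining members serve the cytoskeleton and the membrane. S100a10, also called p11, holds annexin A2 at the plasma membrane, and S100a11 is a partner of annexin A1. S100a10 ran from 2.76 to 4.18 in KO and from 2.92 to 3.72 in WT (difference 0.25 ± 0.30), and S100a11 from 3.01 to 4.40 in KO and from 2.93 to 4.52 in WT (−0.22 ± 0.38). KO 1 and KO 2 were the lowest knockouts for both and KO 4 and KO 5 the highest. The differences of both genes took opposite signs on the slides, with S100a10 at 0.89 within slide 1 and −0.56 within slide 4, and S100a11 at 0.71 and −1.37. S100a6, or calcyclin, was the member with the narrowest range, from 7.91 on WT 1 to 8.43 on KO 2, and its difference was 0.17 ± 0.14.

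S100a4, known as metastasin and used as a fibroblast and leukocyte marker, ran from 0.40 to 1.31 in KO and from 0.42 to 1.25 in WT. KO 5 and WT 4 were the low arrays of their groups. Its difference was −0.06 ± 0.25 on the probe with the higher mean and 0.14 ± 0.29 on the other, so the sign of so small a difference depends on the probe. The deviations of both S100a4 probes followed each other (r = 0.96 over 9 arrays).

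Of the 10 members, 1 was called lower and 0 higher at an adjusted p below 0.05 in limma, where 0.0782% of all genes were called lower, 0.124% higher and 0.202% in either direction. At an unadjusted p below 0.05 there were 2, S100a9 and S100a3, beside 1895 of all 21730 genes (8.72%), the share against which the unadjusted counts of the lists below stand. The groups did not overlap in S100a9 on the low side and S100a3 on the high side, where 1.08% of all genes lay lower and 2.31% higher without overlap, 3.38% in all. As the set was chosen on this contrast, nothing is read from these counts. The median difference of the 10 members was 0.024, beside 0.0050 over all genes, with 5 members above 0 and 5 below. The S100a9 call was kept in 14 of 23 alternative fits. Among the 9 without it were slide as a fixed block (−2.38 ± 0.34), the Y-linked level as a covariate (−3.26 ± 0.40) and the arrays with Y-linked signal alone (−3.26 ± 0.47). It was also lost on leaving out KO 3, KO 4, WT 1, WT 2 or WT 3, where the difference lay between −2.82 and −2.65. With array weights, which give WT 4 the smallest weight (0.22), S100a3 was called beside S100a9.

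**Figure D2:**
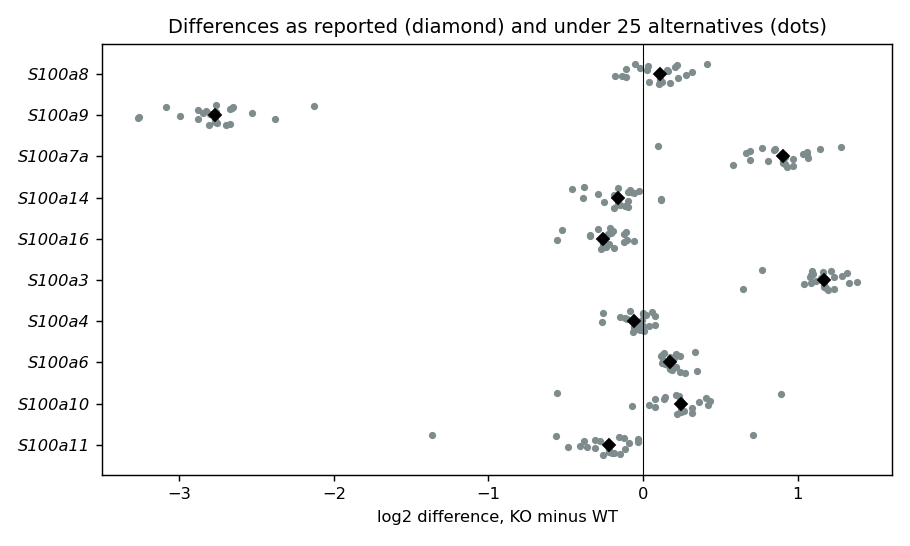
Differences between KO and WT (x axis, log2) for the 10 S100 genes as reported (diamonds) and under 25 alternative settings (dots). S100a9 stays between −3.26 and −2.13 and S100a3 between 0.64 and 1.38, while S100a10 and S100a11 spread to both sides of 0.

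Within each genotype the members did not vary as a block. After removing the group means, the Pearson correlation over the 9 arrays was above 0 in 30 of the 45 pairs, above 0.7 in 5 and below −0.6 in 2. The arrays share signal scaling and tissue makeup, so these values are descriptions with no p. S100a14 and S100a16 followed each other most (r = 0.91, Spearman rho = 0.83), and r was 0.87 without KO 4 and WT 4, the arrays farthest from the S100a14 median. S100a3 and S100a7a came next (r = 0.87, rho = 0.78, and r = 0.84 without KO 4 and WT 2). S100a10 and S100a11 gave r = 0.71 (rho = 0.75, and 0.63 without KO 2 and KO 5). S100a4 with S100a16 gave r = 0.83 but rho = 0.42, and r = 0.14 without KO 5 and WT 4, so that value rests on those arrays. The calprotectin pair S100a8 and S100a9 gave r = 0.29 and rho = 0.15, which turned to −0.59 without KO 1 and KO 5 and was 0.70 without WT 4. S100a8 was closer to S100a7a (r = 0.74). KO 3 and KO 5 were the highest arrays for both of these genes. That r was not taken without KO 3 and KO 5, so it may rest on them.

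**Figure D3:**
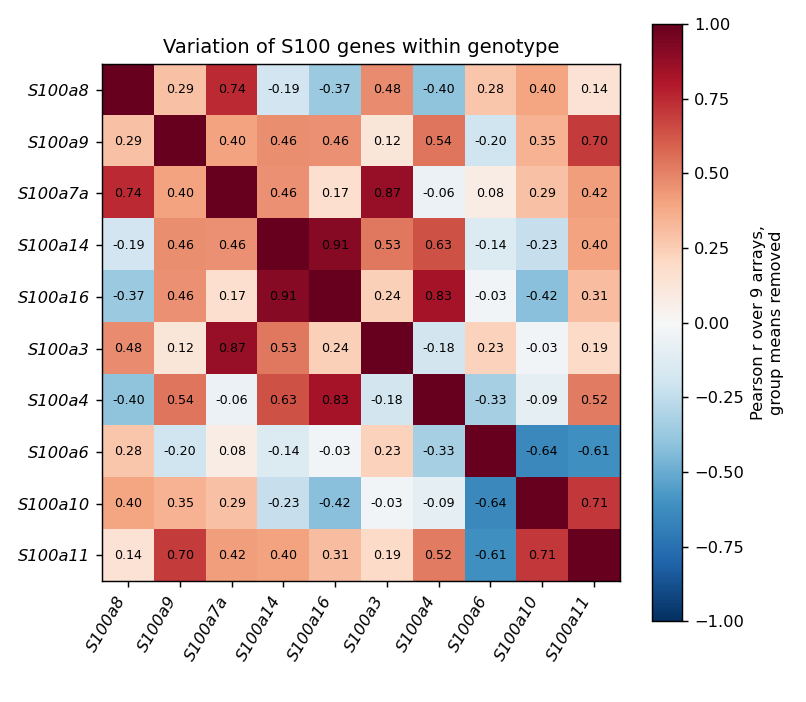
Pearson correlation between S100 genes over 9 arrays after the mean of each genotype was removed (colour scale from −1 to 1, value in each cell). S100a14 with S100a16 and S100a3 with S100a7a are the highest, and S100a6 lies opposite to S100a10 and S100a11.

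The genes whose within-genotype values were most like S100a9 among all genes kept were Adh1 (r = 0.97), Fundc2 (0.97), Arhgap15 (0.97), Sos2 (0.96), C1qb (0.96) and Tmem50a (0.96). Their own differences between genotypes ran from −0.040 to 0.97, none of them near that of S100a9. Most like S100a8 were Ndufb5 (r = 0.97), Mafk (0.97), Mindy1 (0.95), Oit1 (0.95) and Efhd2 (0.95). These genes come from the highest values among 21730 genes over 9 arrays, and they describe these arrays only.

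Markers of cells that carry calprotectin were set beside these genes. Of 22 granulocyte markers 14 were kept, 10 of them lower and 4 higher, and 0 were called in limma, with 3 at an unadjusted p below 0.05 (8.72% of all genes; median difference −0.44, beside 0.0050 over all genes). The median was −0.27 without KO 1, −0.25 without WT 3 and −0.20 without WT 4. Their mean level, relative to the WT mean, ran from −1.08 on KO 1 to −0.31 on KO 5 in KO and from −0.27 on WT 4 to 0.32 on WT 3 in WT. The members with the smallest p were the protease inhibitor genes Stfa2 (−1.80 ± 0.52) and Stfa1 (−2.13 ± 0.63), the chitinase-like Chil3 (−1.98 ± 0.71) and the myeloperoxidase gene Mpo (−0.64 ± 0.43). The granule genes Ltf (0.32 ± 0.51), Elane (−0.12 ± 0.22) and Camp (0.16 ± 0.45) lay closer to 0. They are named after their values were seen. The granulocyte genes Prtn3, Ngp and Mmp9 were not well above background on any array, and Ly6g was so on 3 of 5 KO and 2 of 4 WT arrays. Chil3 was well above background on 3 of 5 KO and all 4 WT arrays, so its difference lies near the floor in KO. Within genotype, S100a9 followed the granulocyte mean with r = 0.79 (also 0.79 without WT 4) and S100a8 with r = 0.37. This was not particular to granulocytes, since S100a9 also followed the monocyte and macrophage mean (r = 0.82, and 0.61 without WT 4) and the fibroblast mean (r = 0.75, and 0.40 without WT 4). KO 1 was the lowest array for both S100a9 and the granulocyte mean. The correlation was not taken without KO 1, so r = 0.79, with or without WT 4, may rest on that array. The part of granulocyte content in the S100a9 difference was not tested.

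**Figure D4:**
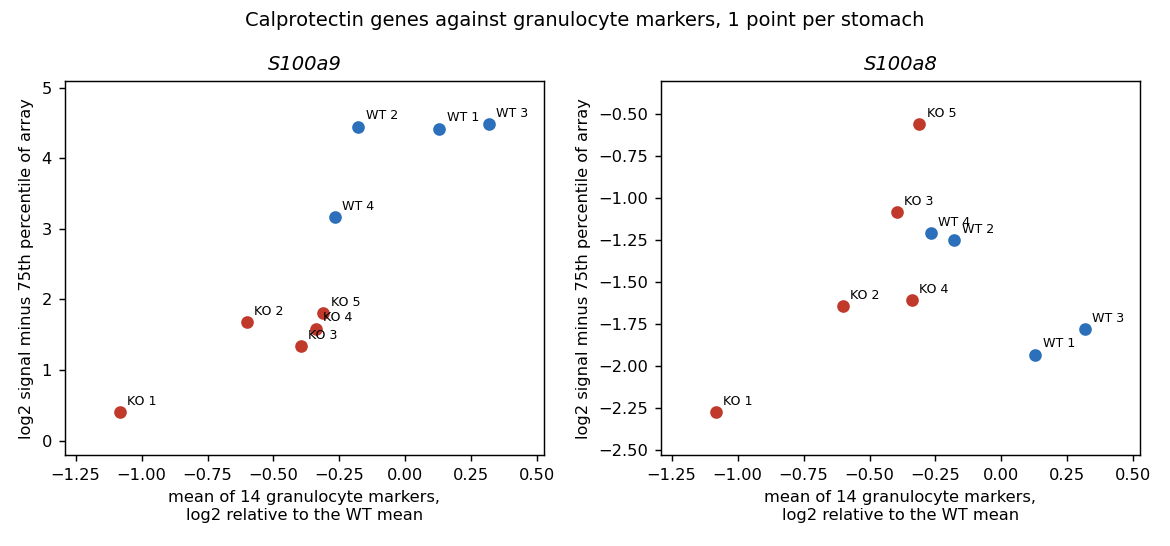
Normalised log2 signal of S100a9 (left) and S100a8 (right) against the mean of 14 granulocyte markers relative to the WT mean (x axis, log2), 1 point per stomach. KO arrays lie at lower means of these markers and lower S100a9, KO 1 being lowest on both axes, while S100a8 of KO 5 and KO 3 lies above all WT arrays. On the x axis KO 5 (−0.31) lies close to WT 4 (−0.27). Of the 14 markers 10 were lower and 4 higher, and Stfa1, Chil3 and Stfa2 differed most. Chil3 was well above background on 3 of 5 KO and all 4 WT arrays.

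The 15 monocyte and macrophage markers were all kept, 10 higher and 5 lower with 0 called and 0 at an unadjusted p below 0.05, and their mean ran from −0.21 to 0.29 in KO and from −0.73 to 0.36 in WT. Without WT 4, the lowest array, 10 were lower and 5 higher, and their median turned from 0.13 to −0.15. Itgam lay at 0.74 ± 0.40, Adgre1 at 0.57 ± 0.37, Csf1r at 0.23 ± 0.15 and Lyz2 at −0.78 ± 0.52. Fibroblast markers, which bear on S100a4, were higher in 9 of 11 with 0 called (2 at an unadjusted p below 0.05), ranging from 0.10 to 0.73 in KO and from −0.81 to 0.38 in WT. Without WT 4 there were 6 of 11 higher, and the median dropped from 0.38 to 0.030. The leading members were Postn (0.95 ± 0.32), Pdgfrb (0.48 ± 0.20), Col3a1 (0.50 ± 0.25) and Pdgfra (0.41 ± 0.23).

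Squamous differentiation markers were lower in 21 of 29 and higher in 8, with 0 called (5 at an unadjusted p below 0.05). Their mean ran from −1.83 on KO 5 to −0.05 on KO 4 in KO and from −1.58 on WT 4 to 0.61 on WT 3 in WT, so KO 5 and WT 4 were the low arrays. Their median difference of −0.48 was −0.21 without KO 5, −0.31 without WT 3 and −0.87 without WT 4, where 28 of 29 were lower. Calm4 (−3.07 ± 0.88), Lce3c (−2.19 ± 0.65), Krt6b (−2.54 ± 0.83) and Krt16 (0.91 ± 0.35) had the smallest p. Within genotype S100a4 (r = 0.94, and 0.91 without WT 4) and S100a16 (0.88, and 0.69 without WT 4) followed this mean. S100a8 ran against it (−0.55, and −0.58 without WT 4). KO 5 and WT 4, the low arrays of this mean, were not left out together, so these values may rest on them. Of the 11 squamous basal markers 4 were higher and 7 lower with 0 called (1 at an unadjusted p below 0.05, Pdpn at −1.01 ± 0.35). Their mean was followed by S100a16 (0.92, and 0.80 without WT 4) and S100a14 (0.90, and 0.69 without WT 4). After Pdpn came Col17a1 (0.31 ± 0.20), Itgb4 (0.33 ± 0.22) and Lgals7 (−1.10 ± 0.84). Glandular stomach markers were higher in 16 of 17. Gkn2, a secreted protein of gastric surface cells, was the 1 called (1.77 ± 0.25, limma adjusted p = 0.0280), where 0.124% of all genes were called higher. All KO arrays lay above all WT arrays in 4 of the 17, beside 2.31% of all genes. At an unadjusted p below 0.05 there were 9 of 17 (8.72% of all genes), with a median difference of 0.70, and the list's mean lay between 0.77 and 0.94 in KO and between −0.15 and 0.16 in WT, without overlap. The Gkn2 call was lost with slide as a fixed block, the replicate block, either Y-linked fit, no filter on dim probes, or on leaving out KO 1, KO 3, KO 4, WT 1, WT 2 or WT 3. The part of these epithelia in the S100 values was not tested.

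S100 genes outside the set mostly lay near 0. Of 8 other S100 family names, 6 were kept and 0 were called (2 at an unadjusted p below 0.05). S100a1 of muscle lay at 0.012 ± 0.23, S100a5 at 0.072 ± 0.19, S100a13 at −0.08 ± 0.18, the S100-binding S100pbp at 0.058 ± 0.34 and S100b of glia at 0.50 ± 0.22. S100g, the calbindin-D9k of vitamin D-dependent calcium uptake, lay at −2.40 ± 0.85 (limma adjusted p = 0.450) and split the knockouts. It read −0.93, −1.65 and −0.25 on KO 1 to KO 3, 1.70 and 3.01 on KO 4 and KO 5, and from 2.32 to 3.41 in WT, and its second probe followed (r = 0.995). KO 4 and KO 5 shared slide 1. S100a2, a name added after the data were seen, lay at 1.09 ± 0.27 with groups that overlapped. In RefSeq S100a2 lies inside the span of S100a3, so signals of this locus may not be separate.

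In the fused-type S100 proteins an S100 domain heads a long repeat protein of the cornified envelope. Of 7 genes 6 were kept and 0 were called (2 at an unadjusted p below 0.05). Crnn, which encodes cornulin, lay at 3.02 ± 0.93 (limma adjusted p = 0.384), with 2.92, 2.49, 3.26, 2.01 and −0.49 in KO and −0.98, 1.14, −0.81 and −3.28 in WT. KO 5 was the 1 KO array that lay among the WT arrays, below WT 2. Flg2 lay at 2.60 ± 0.83, Hrnr at −1.52 ± 0.72, Rptn at −0.75 ± 0.76, Tchh at 0.54 ± 0.37 and Flg at −0.06 ± 0.47. Crnn and Flg2 thus stood on the other side of 0 from Hrnr and Rptn, without a call in either direction.

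**Figure D5:**
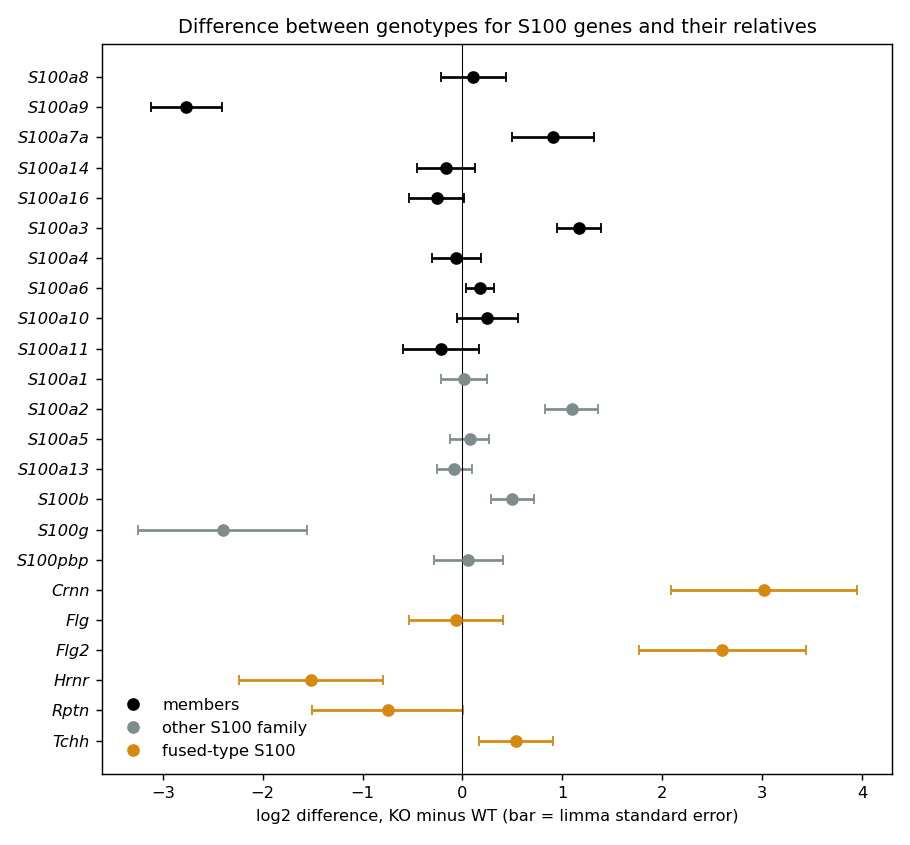
Difference between KO and WT (x axis, log2, bar = limma SE) for the 10 members (black), other S100 family genes (grey) and fused-type S100 genes (orange). S100a9 and S100g lie near −2.77 and −2.40, the latter with a wider error, and Crnn and Flg2 lie at 3.02 and 2.60.

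Receptors and partners of S100 proteins were measured with 28 genes, 27 of them kept. Of these 19 were higher and 8 lower, 0 were called in limma and 3 had an unadjusted p below 0.05 (median difference 0.16, beside 0.0050 over all genes). The smallest p belonged to Sugt1, a co-chaperone that binds S100a6 (0.44 ± 0.18), the scavenger receptor Cd36 (0.49 ± 0.20), the adhesion receptor Mcam (−0.66 ± 0.29) and Ly96, the partner of Tlr4 (0.35 ± 0.19). The calprotectin receptor Tlr4 lay at 0.22 ± 0.25 and Ager at 1.08 ± 0.73. The annexins that bind S100a10 and S100a11 lay at 0.16 ± 0.19 (Anxa2) and 0.49 ± 0.41 (Anxa1). These last 4 were named after their values were seen.

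The S100 genes on chromosome 3 span 90314959 to 93368496 (mm9), and 64 other genes read in that interval were kept. Of these 47 were lower and 17 higher, with a median difference of −0.36. Over all genes 50.9% were higher, and the median was 0.0050. At an unadjusted limma p below 0.05 there were 12 (8.72% of all genes). The groups did not overlap in 4 lower and 1 higher, beside 1.08% and 2.31% of all genes. KO 5 stood low in this interval, with a mean of −1.69 relative to the WT mean, while the other KO arrays lay between −0.43 and 0.078 and the WT arrays between −0.77 and 0.40. Without KO 5 there were 42 lower and 22 higher, with a median of −0.13, and the median was −0.24 without WT 2 and −0.79 without WT 4. In limma, 1 was called higher and 1 lower, beside 0.124% and 0.0782% of all genes. Both came from the small proline-rich family: Sprr2k (2.77 ± 0.31) and Sprr2h (−2.86 ± 0.33), each with a limma adjusted p of 0.0110. Neither was called with slide as a fixed block, the replicate block, either Y-linked fit or without WT 1. Sprr2 probes can bind related transcripts, so which member they read is uncertain. S100a9 and S100a3 lie in an interval in which most differences were below 0, and S100a3, higher in KO, stood on the other side of 0 from most of it. Whether S100a9 shares the interval's course was not tested.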

How the data were processed

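Expression was measured in 9 stomachs, 5 KO and 4 WT, grouped by the labels. The authors' deposited scanner files hold spot intensity, made per the file headers with Agilent Feature Extraction 10.5.1.1 on an mm9 design (the submitters' processing notes name 9.1), and yes or no flags, which are values of another kind. A deposited series matrix gives log2 values for these arrays. Its differences between arrays match log2 of the processed signal, while its centring is unknown, and its column medians ran from −0.28 to 0.38. Control spots (3671) and outlier spots were dropped and spots of a probe averaged in log2. RefSeq (GRCm38.p6) matched 26762 of 55681 probes and renamed 2878. Each gene was read from its kept probe with the highest mean and compared with limma 3.58.1 in R 4.3.3, without covariates, with Benjamini-Hochberg adjustment over all 21730 genes. The fit was tested on simulated data.

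Members, lists and tests were chosen with earlier results of these data known. Named are all members and S100 relatives, the called or else the 4 genes of smallest p per list, and the 6 genes most like S100a8 and S100a9, of which 1 is not reported here. Alternatives covered scaling, background, filter, probe choice, slide, replicate number, Y-linked level, weights and each array left out.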

Additional observations from a re-analysis of the deposited data

Results flagged for a closer look

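The members' probes were checked 24 times, each in 1 group of 4 or 5 arrays. In 4 checks a lowest or highest array stood apart from its group. Chance alone marks about 1 in 20 of independent checks. These checks share the same arrays, and some probes varied together, so the 4 cannot be weighed against that rate. All 4 were WT 4, the lowest WT array, at 3.17 for S100a9, 5.06 for S100a14, 0.42 for the higher S100a4 probe and 3.78 for the dimmer S100a16 probe. WT 4 was the lowest WT array in 7 of the 10 members, and the exceptions were S100a6, S100a8 and S100a10. It also had the lowest 75th percentile of signal (221), and its squamous differentiation level was −1.58 relative to the WT mean. Without WT 4 the differences were −3.09 for S100a9, −0.46 for S100a14, −0.26 for S100a4 and −0.52 for S100a16. The S100a16 difference is that of its brighter probe, on which WT 4 was also lowest but was not marked.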

How the results depend on the processing

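The directions of Cebpb, S100a9, S100a16, S100a3, S100a6 and S100a7a held in all 25 alternatives, while S100a4, S100a8, S100a10, S100a11 and S100a14 changed sign in some. Calls depended on the covariates. The number of members called was 0 with slide as a fixed block, with the replicate block, with the Y-linked covariate and over arrays that carry Y-linked signal, and 2 with array weights. Those fits gave 0, 0, 0, 0 and 9 interval neighbours and 0, 0, 0, 0 and 8 marker genes, and without a filter on dim probes 0 marker genes. Over all genes 44 were called, against 5 with slide as a fixed block, 4 with each of the replicate block, the Y-linked covariate and the arrays with Y-linked signal, 22 without a filter and 548 with array weights. On leaving out 1 array the members called ran from 0 to 1, interval neighbours from 0 to 2, marker genes from 0 to 5, and all genes called from 11 (without WT 1) to 161 (without WT 4). Within slide 1 S100a9 differed by −2.13 and the median of the 8 members other than the calprotectin pair was 0.42, against −0.15 within slide 4. The S100a8 to S100a9 correlation ran from −0.28 without KO 1 to 0.70 without WT 4. Whether the mouse numbers pair the samples is unknown, as no litters are given. Deviations of same-numbered mice correlated at −0.30, 0.12, 0.15 and −0.48, which cannot settle it, since array-wide effects enter these values. The replicate block gave −2.88 ± 0.40 for S100a9. Slide as a random block and the lists' medians without single arrays were chosen after seeing the data, and the former left 42 genes called, S100a9 among them. Smaller counts with a block or fewer arrays come with fewer residual degrees of freedom, and the cause was not tested further.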

Other observations

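Late cornified envelope genes fill much of the S100 interval and were looked at after their values were seen. All 4 Lce3 genes kept (Lce3a, Lce3b, Lce3c and Lce3f) were lower in KO, by −2.05 to −3.41 on the log2 scale (median −2.29, or −1.72 without KO 5), and 0 of them passed the limma threshold. Lce3b was the 1 whose groups did not overlap, from 2.35 to 6.49 in KO and from 6.61 to 7.58 in WT. Over all genes 1.08% lay lower without overlap. All 13 Lce1 genes were lower too, with a median of −0.87 and 0 called, but without KO 5 there were 12 lower and the median was −0.27. The 13 Sprr genes split into 6 lower and 7 higher with a median of 0.058, which was −0.12 without KO 3, −0.04 without KO 4 and −0.35 without WT 4. Lce relatives resemble each other in sequence, so their probes are not independent readings.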
